A study of Mus musculus with 14 samples.

Results

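The nuclear-encoded subunits of respiratory complexes III, IV and V and the electron carrier cytochrome c were followed in mouse kidney as 45 protein-coding genes of the 47729 genes listed. Members were chosen by symbol in the mm10 annotation: names starting Uqcr, Cox4, Cox5, Cox6, Cox7, Cox8 or Atp5, plus Cyc1 and Cycs. They comprise 9 genes of complex III, Cycs, 18 genes of complex IV and 17 genes named for complex V. Of the complex IV genes, 11 are broadly expressed and 7 are isoforms known mainly from muscle, lung, brown fat or testis. A further 7 pseudogene rows with matching symbols were left out, and none of them exceeded 25 counts in a library.

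The 14 libraries came from frozen kidney tissue in 4 groups: 3 from wild-type mice without treatment (wild-type normal), 4 from wild-type mice after 7 days of unilateral ureteral obstruction (UUO), 3 from mice labelled SMOC2 transgenic without treatment and 4 from mice labelled SMOC2 transgenic after 7 days of UUO. UUO ties off a ureter, and the blocked kidney loses tubules and becomes fibrotic. SMOC2 is a secreted matrix protein. The labels used here name no transgene promoter, mouse age or strain for these groups; the protocol text of the labels describes folic acid injection in male Balb/c mice, which no library's treatment label names, so groups were taken from the genotype and treatment labels. Since no label ties a library to its own animal, p-values measure the spread between libraries, part of which may be technical.

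Complex III (cytochrome bc1) takes electrons from ubiquinol and hands them to cytochrome c, which carries them to complex IV (cytochrome c oxidase), where oxygen is reduced; both pump protons across the inner mitochondrial membrane. Complex V (ATP synthase) lets the protons back through a rotating ring of c subunits in Fo and makes ATP in the F1 head. The kidney's proximal tubule and thick ascending limb are rich in mitochondria, since solute transport there depends on oxidative ATP supply. Several complex IV subunits have tissue isoforms encoded by separate genes.

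Library totals ran from 19483994 to 30033405 counts. In wild-type kidney Smoc2 itself was at 12.6, 19.7 and 43.3 CPM (counts per 1000000 of the TMM-scaled library total) without UUO and at 150, 131, 158 and 148 CPM after it. In the libraries labelled SMOC2 transgenic it was at 27.8, 26.9 and 10.6 CPM without UUO and at 124, 89.9, 83.9 and 87.1 CPM after it. No excess of Smoc2 was therefore seen under the transgenic label, and "SMOC2-labelled" below refers to the label only. The summed level of 12 proximal tubule markers ran from 43402 to 57861 CPM in wild-type normal kidney and from 3293 to 7925 CPM after UUO, and in SMOC2-labelled kidney from 46948 to 56479 CPM and from 5047 to 6433 CPM. The summed level of 8 macrophage markers ran from 193 to 237 CPM in wild-type normal kidney and from 1083 to 1242 CPM after UUO, and in SMOC2-labelled kidney from 199 to 259 CPM and from 1031 to 1314 CPM.

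Upstream sequence is shown for 2 isoform pairs whose balance shifted with UUO, described below. It is also shown for 2 members whose 250-base windows hold motifs of both NRF1 and the ETS family. NRF1 and the ETS factor GABP are known activators of nuclear genes for respiratory subunits, and the ERR nuclear receptors act with PGC-1 coactivators on the same genes. The sequences are RefSeq's (GRCm38.p6), written 5′ to 3′ on the gene's strand, from up to 250 bases before the RefSeq start, and capitals mark a motif. Bases that GENCODE M21 places in an exon of any gene were left out, so the printed run can stop short of the start.
Cox6b2 (chr7:4753095-4753225, minus strand): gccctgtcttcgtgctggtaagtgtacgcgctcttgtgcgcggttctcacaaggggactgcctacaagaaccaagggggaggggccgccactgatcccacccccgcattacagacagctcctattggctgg
Cox6b1 (chr7:30626152-30626364, minus strand): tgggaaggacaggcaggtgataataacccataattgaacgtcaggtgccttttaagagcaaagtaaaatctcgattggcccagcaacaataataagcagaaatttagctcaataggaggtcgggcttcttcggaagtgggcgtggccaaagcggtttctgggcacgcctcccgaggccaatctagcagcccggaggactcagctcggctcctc
Atp5g2 (chr15:102671128-102671297, minus strand): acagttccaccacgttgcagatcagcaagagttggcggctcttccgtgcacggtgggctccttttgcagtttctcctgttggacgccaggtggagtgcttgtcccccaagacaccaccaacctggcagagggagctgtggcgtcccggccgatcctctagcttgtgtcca
Atp5g3 (chr2:73911327-73911576, minus strand): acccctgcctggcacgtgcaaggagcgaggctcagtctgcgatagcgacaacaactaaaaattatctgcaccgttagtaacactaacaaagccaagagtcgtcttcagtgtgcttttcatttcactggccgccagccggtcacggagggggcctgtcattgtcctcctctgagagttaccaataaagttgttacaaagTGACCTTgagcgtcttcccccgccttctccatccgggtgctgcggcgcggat
Cox6a1 (chr5:115348982-115349129, minus strand): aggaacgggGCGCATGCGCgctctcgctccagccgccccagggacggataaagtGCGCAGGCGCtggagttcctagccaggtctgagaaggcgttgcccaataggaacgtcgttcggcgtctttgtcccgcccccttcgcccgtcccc
Atp5h (chr11:115419963-115420127, minus strand): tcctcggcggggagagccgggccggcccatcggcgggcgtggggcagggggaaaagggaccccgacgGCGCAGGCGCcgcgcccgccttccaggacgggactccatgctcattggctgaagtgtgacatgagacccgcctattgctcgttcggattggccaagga

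Of the 45 members, 32 had an entry in the RefSeq promoter table. On either strand within the 250 bases before the start, the NRF1 motif (the capitals in Cox6a1 and Atp5h, with any base at the variable position in the middle) was in 5 of the 32 (15.6%, against 4.23% of the 27025 genes of the table): Atp5c1, Atp5g2, Atp5h, Atp5k and Cox6a1. The ETS motif CCGGAAG was in 8 (25%, against 7.83%): Atp5e, Atp5h, Atp5j, Atp5l, Cox6a1, Cox6b1, Uqcr11 and Uqcrh. The ERR motif AAGGTCA was in Atp5g3 and Atp5l (6.25%, against 4.7%), and the YY1 motif AAGATGGC was in Atp5j (3.12%, against 1.83%). The Cox6b2 window held none of these 4 motifs. A match is only a run of letters; no factor's binding was measured.

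After UUO the broadly expressed subunits of all 3 complexes were lower in both labels. In wild-type kidney 40 of the 43 members tested fell, 1 rose (Cox6b2), and 2 did not pass (Cox4i2 and Cox6a2). Over all 17926 genes tested, 61.1% changed in that comparison: 29.8% fell and 31.3% rose. In SMOC2-labelled kidney 41 members fell, 1 rose (Cox6b2), and 1 did not pass (Cox6a2), while 62.8% of all genes changed, 30.4% falling and 32.5% rising. The test was edgeR's quasi-likelihood test on the counts, with p adjusted by Benjamini-Hochberg over all genes and a threshold of 0.05. All 38 members other than the restricted complex IV isoforms fell in both labels, among them Cox7a2l, whose direction reversed when counts were scaled by library size alone. The falls were 2-fold or more for 36 members in wild-type and 37 in SMOC2-labelled kidney, against 12.8% and 13.7% of all genes. The median log2 change of the members was -1.30 in wild-type and -1.39 in SMOC2-labelled kidney, beside 0.05 and 0.04 over all genes. Every UUO library lay below every normal library for 39 members in wild-type kidney and for 41 in SMOC2-labelled kidney; the same held for 29.5% and 30.1% of all genes. Only Cox6b2 lay above in all libraries, as did 31.3% and 32.6% of all genes.

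**Figure D1:**
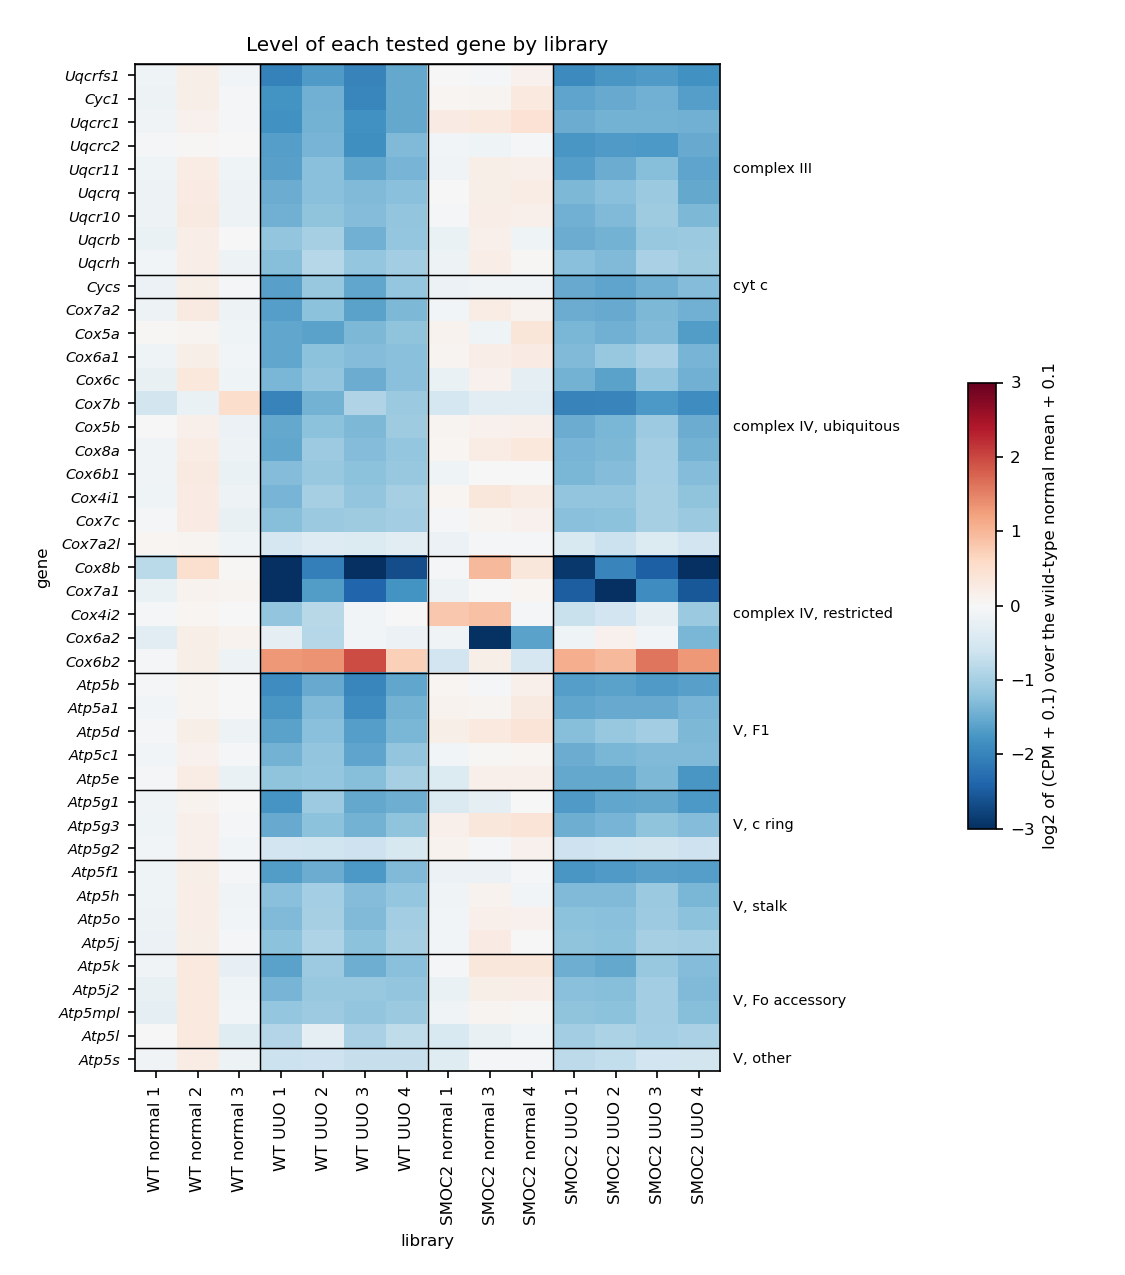
Level of each of the 43 tested members (rows, grouped by complex) in each of the 14 libraries (columns), as log2 of CPM + 0.1 over the wild-type normal mean + 0.1; colours are capped at -3 and 3. The 8 UUO libraries are blue for nearly all rows in both labels, the row of Cox6b2 is red there, and the rows of Cox7a2l, Atp5g2 and Atp5s are pale.

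Scaling matters for these counts. Members took 1.64% ± 0.108 (SD, n = 3) of all raw counts in wild-type normal kidney and 0.849% ± 0.0773 (SD, n = 4) after UUO. In SMOC2-labelled kidney they took 1.68% ± 0.0736 (SD, n = 3) and 0.838% ± 0.0441 (SD, n = 4). TMM factors were 0.801 to 0.855 in normal and 1.13 to 1.20 in UUO libraries. With library size alone, an alternative chosen after seeing the data, the median log2 change of all genes moved to 0.52 in wild-type and 0.54 in SMOC2-labelled kidney, and the split of calls over all genes moved from 5603 higher and 5347 lower to 10052 higher and 2716 lower in wild-type kidney, and from 5817 and 5447 to 10382 and 2804 in SMOC2-labelled kidney. With upper-quartile scaling that split was 6541 higher and 4514 lower in wild-type kidney and 6805 and 4609 in SMOC2-labelled kidney. The members then split into 36 lower and 1 higher in wild-type kidney and 37 lower and 2 higher in SMOC2-labelled kidney with library size alone. In kidney tissue, fewer cells of a type and less RNA per cell cannot be told apart.

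The same wild-type UUO libraries were low in the members' summed level and in the proximal tubule markers. The members summed to 6480 and 6710 CPM in replicates 1 and 3 and to 8154 and 7988 CPM in replicates 2 and 4. The 12 proximal tubule markers summed to 3293 and 3623 CPM in replicates 1 and 3 and to 7925 and 7542 CPM in replicates 2 and 4. All 12 of those markers fell with UUO in both labels, with a median log2 change of -3.12 in wild-type and -2.97 in SMOC2-labelled kidney, and none was at 0. The 8 markers of the loop of Henle and distal tubule summed to 11879 to 13057 CPM in wild-type normal kidney and to 1806, 3817, 2175 and 3411 CPM after UUO, again lower in replicates 1 and 3. In SMOC2-labelled kidney they summed to 8038 to 11153 CPM and to 1694 to 2595 CPM after UUO. In both labels 7 of the 8 fell (Cldn16 did not pass). Other cell types also differed between the wild-type UUO replicates. Collecting duct markers summed to 255 and 246 CPM in replicates 1 and 3 and to 276 and 394 CPM in replicates 2 and 4. Fibroblast markers went the other way, at 3221 and 2981 CPM against 2011 and 1829 CPM. Under the SMOC2 label, UUO replicate 1 had the highest sum of these loop and distal markers (2595 CPM). Yet its members' sum (6957 CPM) and its proximal tubule marker sum (5047 CPM) were the lowest of its group. The part of any of these cell types in the members' change was not tested.

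All 9 complex III genes fell 2-fold or more in both labels, with log2 changes from -1.80 to -1.07 in wild-type and from -1.81 to -1.18 in SMOC2-labelled kidney. Uqcrfs1, the Rieske iron-sulfur protein that takes the first electron from ubiquinol, stood at 340, 421 and 350 CPM in wild-type normal kidney and at 90.9, 114, 92.5 and 127 CPM after UUO. In SMOC2-labelled kidney it stood at 365, 353 and 404 CPM and at 97.9, 111, 113 and 104 CPM. No UUO library reached a normal one, and the gap between them was wider than the range within either group. Uqcrfs1 was 3.49-fold lower in wild-type (log2 -1.80, SE 0.12, edgeR adjusted p = 5.11e-08) and 3.51-fold lower in SMOC2-labelled kidney (log2 -1.81, SE 0.12, adjusted p = 4.01e-08), the largest fall of complex III in both labels.

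Cyc1, the haem protein cytochrome c1 that reduces cytochrome c, stood at 401, 504 and 437 CPM in wild-type normal kidney and 129, 165, 115 and 154 CPM after UUO. In SMOC2-labelled kidney Cyc1 was at 469, 477 and 552 CPM and at 150, 157, 163 and 142 CPM. Its log2 change was -1.67 (SE 0.12) and -1.70 (SE 0.12), with no overlap between normal and obstructed libraries. The core proteins, which line the matrix side of the complex, fell to a similar degree: Uqcrc1 by 1.64 and 1.77 and Uqcrc2 by 1.54 and 1.57 on the log2 scale in wild-type and SMOC2-labelled kidney.

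Among the small accessory subunits of complex III, Uqcr11 changed by -1.45 and -1.57, Uqcrq by -1.33 and -1.45, Uqcr10 by -1.28 and -1.39, Uqcrb by -1.19 and -1.23, and the hinge protein gene Uqcrh by -1.07 and -1.18 (log2, wild-type and SMOC2-labelled). The 95% intervals of Uqcrfs1 and Uqcrh, the ends of this order, did not overlap in either label (-2.07 to -1.54 against -1.34 to -0.79 in wild-type kidney). Neighbours in the order overlapped, and differences between genes were not tested.

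Cycs, which encodes somatic cytochrome c, stood at 61.5, 78.8 and 67.7 CPM in wild-type normal kidney and at 22.5, 31.3, 23.3 and 30.9 CPM after UUO. Under the SMOC2 label the values were 61.5, 64.9 and 64.4 CPM without UUO and 24.2, 23.3, 25.5 and 28.1 CPM after it. The groups did not overlap, and the log2 change was -1.36 (SE 0.12, edgeR adjusted p = 5.03e-07) in wild-type and -1.33 (SE 0.12, adjusted p = 5.33e-07) in SMOC2-labelled kidney.

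**Figure D2:**
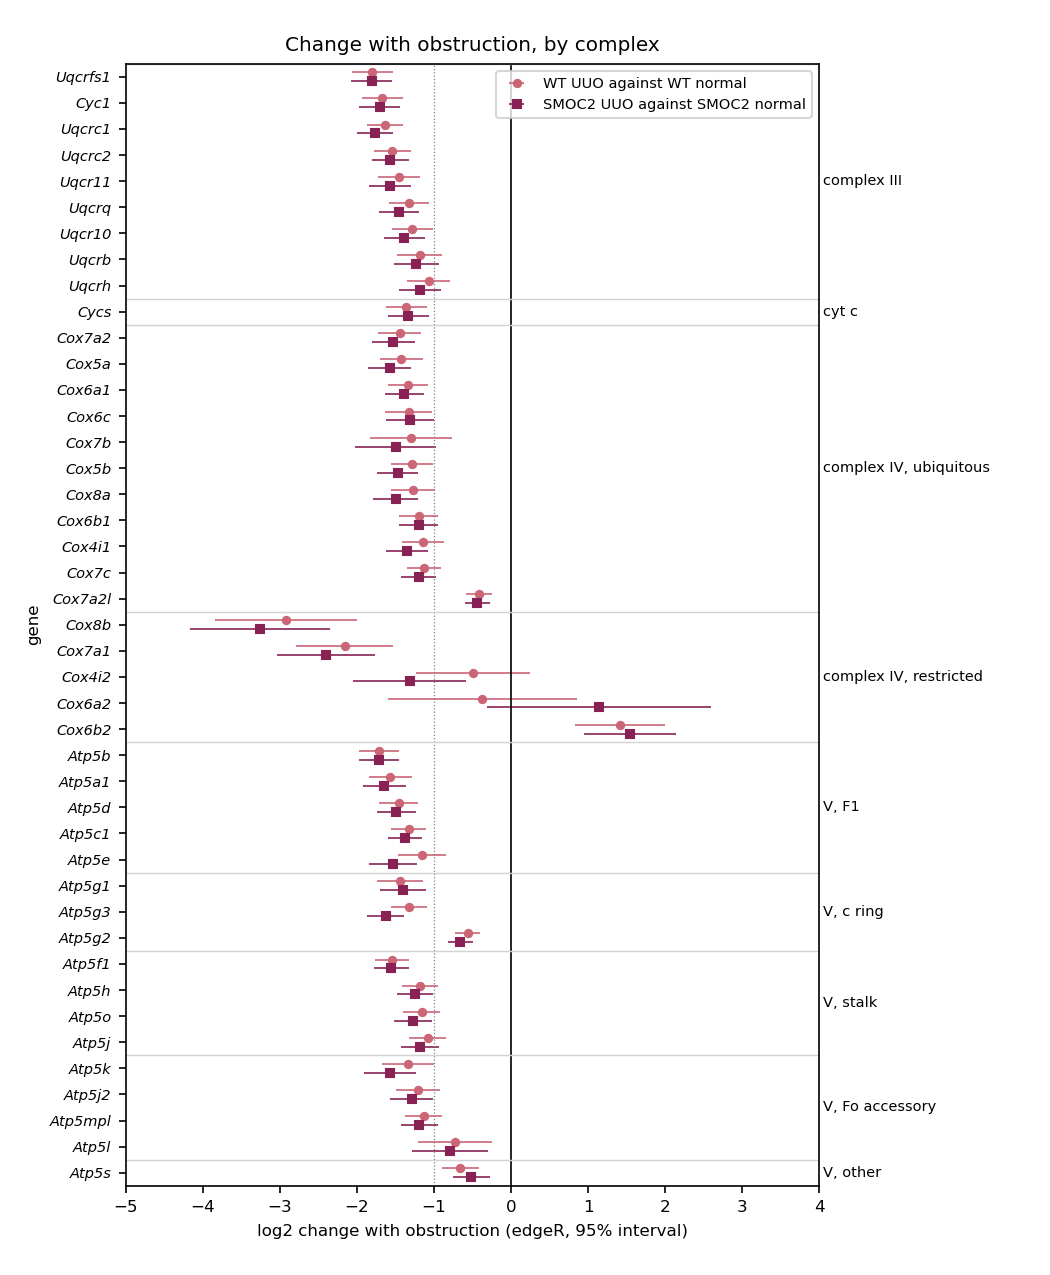
Log2 change with UUO (horizontal axis, edgeR estimate with 95% interval) for each of the 43 tested members, grouped by complex; circles are wild-type and squares SMOC2-labelled kidney, and the dotted line marks a 2-fold fall. Most members lie between -1.81 and -1.07 in both labels, while Cox7a2l, Atp5g2, Atp5l and Atp5s lie nearer 0 and Cox6b2 lies above 0.

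Of the 11 broadly expressed complex IV genes, all fell in both labels, and 10 fell 2-fold or more. These encode the nuclear subunits that surround the mitochondrially encoded catalytic core. Per kilobase of merged exon, Cox8a had the highest level of any member in wild-type normal kidney (1095 ± 167 CPM per kb, SD, n = 3), followed by Cox6b1 (923 ± 164 CPM per kb). After UUO these levels were 453 ± 60.2 and 402 ± 21.4 CPM per kb (SD, n = 4). Cox8a (619 bases of merged exon) also had more counts than Cox6b1 (708 bases) in each wild-type normal library. The levels were 628, 796 and 609 against 603, 786 and 571 CPM, so Cox8a was the higher per kilobase in all 3. The size of this difference was not tested. The rank of Cox8a over all members rests on merged exon length, which is 4237 bases for Atp5b and 3135 for Atp5a1. Before division by length, Atp5b (mean 3721 CPM) and Atp5a1 (2835 CPM) were above Cox8a (678 CPM) in wild-type normal kidney. Rank by another transcript length was not tested.

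Apart from Cox7a2l, the log2 changes of this set lay between -1.45 (Cox7a2) and -1.13 (Cox7c) in wild-type kidney and between -1.58 (Cox5a) and -1.20 (Cox6b1) in SMOC2-labelled kidney. Cox4i1, the broadly expressed form of the subunit through which ATP is known to regulate the enzyme, stood at 765, 986 and 747 CPM in wild-type normal kidney and at 315, 416, 369 and 414 CPM after UUO. In SMOC2-labelled kidney Cox4i1 was at 872, 1056 and 967 CPM and at 365, 365, 420 and 358 CPM. All obstructed libraries were below all normal libraries, and the log2 change was -1.14 (SE 0.13) and -1.35 (SE 0.13).

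Cox7b, an X-linked subunit gene, was the least even member of the set within a group. It stood at 397, 504 and 841 CPM in wild-type normal kidney, where replicate 3 was highest, and at 145, 218, 311 and 269 CPM after UUO. In SMOC2-labelled kidney it was at 406, 464 and 458 CPM and at 144, 147, 176 and 159 CPM. It was 2.46-fold lower in wild-type (log2 -1.30, SE 0.25, edgeR adjusted p = 0.000383) and 2.83-fold lower in SMOC2-labelled kidney (SE of log2 0.25, adjusted p = 0.00011). Leaving out single libraries moved the wild-type change between -1.51 and -0.94, and the call held. Its neighbour on the X chromosome, Magt1, named after its values were seen, was also highest in wild-type normal replicate 3 (153, 149 and 271 CPM). The cause of the uneven Cox7b values was not tested.

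Cox7a2l, also called SCAF1 and known for joining complexes III and IV into supercomplexes, had the change nearest 0 of this set. It stood at 83.1, 84.3 and 72.9 CPM in wild-type normal kidney and at 56.3, 61.0, 60.1 and 63.3 CPM after UUO. The corresponding SMOC2-labelled values were 71.3, 77.6 and 77.9 CPM without UUO and 58.5, 50.8, 60.4 and 53.8 CPM after it. The groups did not overlap, and with TMM scaling the log2 change was -0.41 (SE 0.08, edgeR adjusted p = 0.000378) and -0.44 (SE 0.08, adjusted p = 0.000227). With library size alone the sign turned (0.06 in both labels) and neither call held.

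The 7 restricted isoforms of complex IV did not move as a set. In wild-type kidney 2 fell (Cox7a1 and Cox8b), 1 rose (Cox6b2) and 2 did not pass. In SMOC2-labelled kidney 3 fell (Cox7a1, Cox8b and Cox4i2), 1 rose and 1 did not pass. The testis isoforms Cox7b2 and Cox8c were too low to test: Cox7b2 had 12 counts and Cox8c 0 counts over the 14 libraries. A count of 0 allows up to 0.00885 CPM for Cox8c over all libraries together, counting error only.

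Cox6b2 (chr7:4751792-4753094 in mm10), known as the testis form of a subunit that docks cytochrome c, was the only member that rose. It stood at 5.11, 5.92 and 4.75 CPM in wild-type normal kidney and at 13.2, 13.6, 20.6 and 8.68 CPM after UUO. In SMOC2-labelled kidney it was at 3.51, 5.94 and 3.70 CPM and at 11.3, 10.5, 16.2 and 13.2 CPM. Every obstructed library was above every normal library, and replicate 3 was highest of the UUO libraries in both labels. The rise was 2.67-fold in wild-type (log2 1.42, SE 0.27, edgeR adjusted p = 0.000418) and 2.92-fold in SMOC2-labelled kidney (log2 1.54, SE 0.28, adjusted p = 0.000231). These values rest on 56 to 582 counts a library.

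Cox6b2 overlaps no annotated gene. The gene upstream on the same strand, Fam71e2, which has an exon just before the run printed above and was looked up after the values were seen, was at 0 to 0.124 CPM in all libraries. None of 5 testis germ cell markers was high enough to test, and their sum was 0 to 0.495 CPM in any library, with Tnp1 at 0 in all of them. By merged exon length, Cox6b2 was 0.516% ± 0.0319 (SD, n = 3) of the level of Cox6b1 and Cox6b2 together in wild-type normal kidney and 3.06% ± 1.1 (SD, n = 4) after UUO. In SMOC2-labelled kidney the share was 0.437% ± 0.117 (SD, n = 3) and 2.86% ± 0.307 (SD, n = 4), so Cox6b1 remained the main form in every group.

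Cox7a1, the heart and skeletal muscle form of subunit 7a, fell further than the broadly expressed Cox7a2. It stood at 16.4, 20.6 and 19.9 CPM in wild-type normal kidney and at 2.15, 5.86, 3.57 and 5.43 CPM after UUO. SMOC2-labelled kidney gave 17.1, 18.7 and 19.7 CPM without UUO and 3.36, 2.26, 5.16 and 3.17 CPM after it. It was 4.46-fold lower in wild-type (log2 -2.16, SE 0.29, edgeR adjusted p = 1.99e-05) and 5.29-fold lower in SMOC2-labelled kidney (log2 -2.40, SE 0.30, adjusted p = 7.49e-06), with a wide gap between normal and obstructed libraries.

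Cox8b, the form of subunit 8 known from heart, muscle and brown fat, had the largest fall of all members but low counts (6 to 106 a library). It stood at 1.63, 4.19 and 3.04 CPM in wild-type normal kidney and at 0.287, 0.640, 0.212 and 0.385 CPM after UUO. In SMOC2-labelled kidney it was at 2.82, 5.88 and 3.75 CPM and at 0.311, 0.674, 0.460 and 0.284 CPM. The groups did not overlap, and the log2 change was -2.93 (SE 0.43, edgeR adjusted p = 4.11e-05) in wild-type and -3.26 (SE 0.42, adjusted p = 1.23e-05) in SMOC2-labelled kidney. Beside this, 9 markers of skeletal or heart muscle summed to 4.48 to 6.71 CPM in wild-type normal kidney and 2.59 to 4.74 CPM after UUO, and in SMOC2-labelled kidney to 5.77 to 8.33 CPM and 2.54 to 4.48 CPM. Only 4 of them were high enough to test: Myh1 and Myh6 fell and Acta1 and Tnnt2 rose in wild-type kidney. The 6 fat markers summed to 55.8 to 84.4 CPM in wild-type normal kidney and 64.9 to 83.3 CPM after UUO, and in SMOC2-labelled kidney to 69.2 to 85.0 CPM and 89.9 to 101.5 CPM. Of the 4 fat markers tested, 0 fell in either label by edgeR, and Fabp4 rose in SMOC2-labelled kidney. The sums do not show single markers. In wild-type kidney all 4 log2 changes were positive (median 1.31, largest 4.56), though none passed (smallest edgeR adjusted p = 0.0542). In SMOC2-labelled kidney the changes ran from -0.36 to 0.80, with a median of 0.17. The part of muscle and fat cells in the falls of Cox7a1 and Cox8b was not tested.

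Cox4i2, the lung and smooth muscle form of subunit 4, was at 1.28, 1.397 and 1.36 CPM in wild-type normal kidney and at 0.539, 0.707, 1.27 and 1.32 CPM after UUO. The SMOC2-labelled libraries gave 2.44, 2.55 and 1.30 CPM without UUO and 0.809, 0.872, 1.10 and 0.568 CPM after it. It fell in SMOC2-labelled kidney (log2 -1.31, SE 0.34, edgeR adjusted p = 0.00394) and overlapped between groups in wild-type kidney (-0.49, SE 0.34, adjusted p = 0.232). The difference between labels did not pass (interaction log2 -0.82, adjusted p = 0.81). Of 8 pericyte markers tested, 6 rose and Abcc9 fell in wild-type kidney, while 5 rose and 0 fell in SMOC2-labelled kidney. Of 7 smooth muscle markers 5 rose in both labels; their part in the level of Cox4i2 was not tested.

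Cox6a2, the muscle form of subunit 6a, was at 0.529, 0.783 and 0.740 CPM in wild-type normal kidney and at 0.539, 0.337, 0.637 and 0.598 CPM after UUO. In SMOC2-labelled kidney it was at 0.626, 0 and 0.156 CPM and at 0.622, 0.753, 0.636 and 0.203 CPM. These are 0 to 20 counts a library, groups overlapped, and neither change passed (adjusted p = 0.593 and 0.158). In SMOC2-labelled kidney the change passed in 2 alternatives. These were library size alone, and leaving out normal replicate 1 (log2 2.72), the library with the most Cox6a2 in that group. Cox6a2 overlaps an exon of Itgad on the opposite strand.

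**Figure D3:**
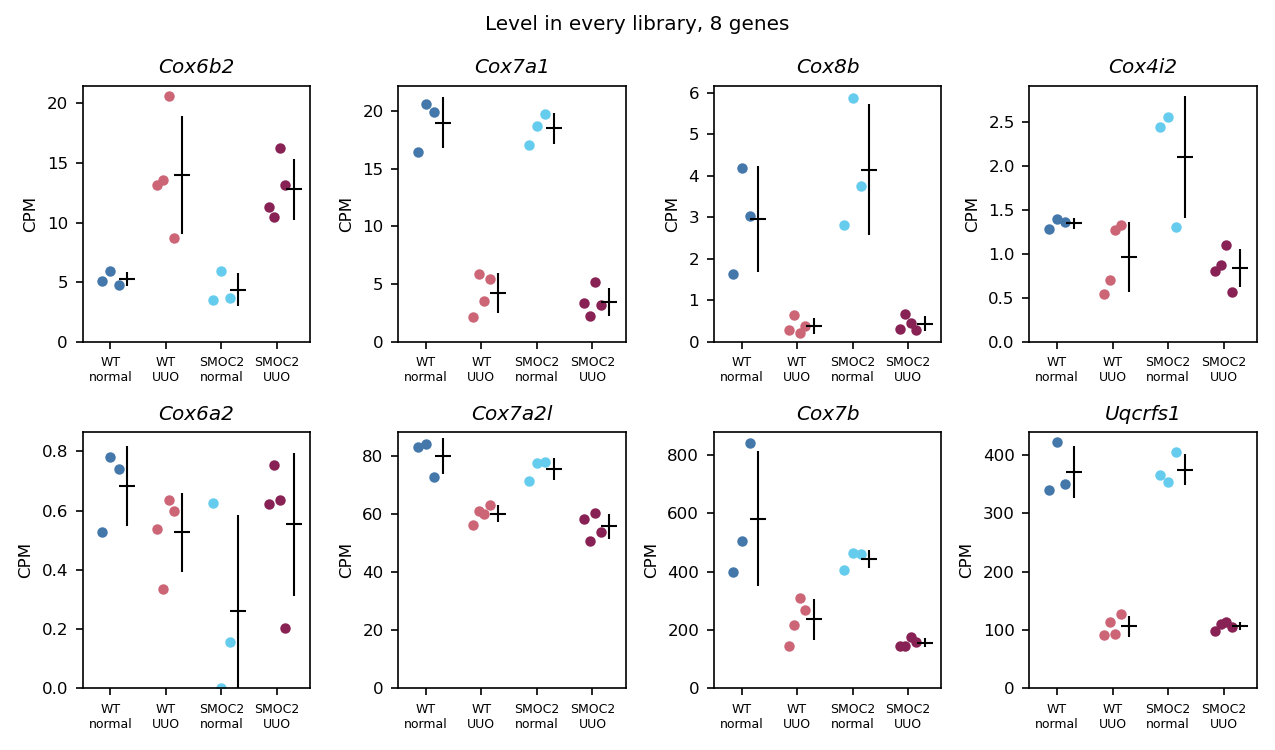
CPM (vertical axis, from 0, a separate scale for each gene) in every library for 8 members, by group; bars beside the points give the mean and SD of 3 normal or 4 UUO libraries. Cox6b2 is higher in all UUO libraries, Cox7a1, Cox8b, Cox7a2l and Uqcrfs1 are lower in all of them, Cox6a2 overlaps, and wild-type normal replicate 3 stands at 841 CPM for Cox7b.

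The ratio of isoforms within a library does not depend on scaling between libraries. For 8 pairs the log2 ratio of counts, with 0.5 added, was compared between UUO and normal libraries by an exact two-sided permutation test within each label (1225 arrangements, smallest possible p = 0.0008163), adjusted over the 8 pairs. The count of Cox6b2 per 1000 counts of Cox6b1 was 8.11 ± 0.504 in wild-type normal kidney (SD, n = 3), 49.6 ± 18.4 after UUO (SD, n = 4), and 6.87 ± 1.85 and 46.1 ± 5.08 in SMOC2-labelled kidney. The mean log2 ratio rose by 2.65 (exact permutation adjusted p = 0.001633).

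The ratio of Cox8b to Cox8a fell by 1.68 on the log2 scale (exact permutation adjusted p = 0.001633) and that of Cox7a1 to Cox7a2 by 0.87 (adjusted p = 0.003265), so both muscle forms fell relative to their broadly expressed partners. Cox7a2l rose relative to Cox7a2 by 1.06 (adjusted p = 0.001633), from 251 ± 35.6 to 512 ± 56.1 per 1000 counts in wild-type kidney and from 220 ± 14.97 to 467 ± 26.5 in SMOC2-labelled kidney (SD, n = 3 and 4). In each of these pairs all UUO libraries lay on the same side of the normal libraries in both labels. The ratio of Cox6a2 to Cox6a1 rose by 2.06 (adjusted p = 0.003265), but it rests on 0 to 20 counts of Cox6a2, libraries overlapped in SMOC2-labelled kidney, and its size there was 3.19, against 0.94 in wild-type. With 5 in place of 0.5 added to each count, the rise was 1.46, and without SMOC2-labelled normal replicate 3, whose Cox6a2 count was 0, it was 1.45. The ratio of Cox4i2 to Cox4i1 differed by 0.31 and did not pass (adjusted p = 0.2295).

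**Figure D4:**
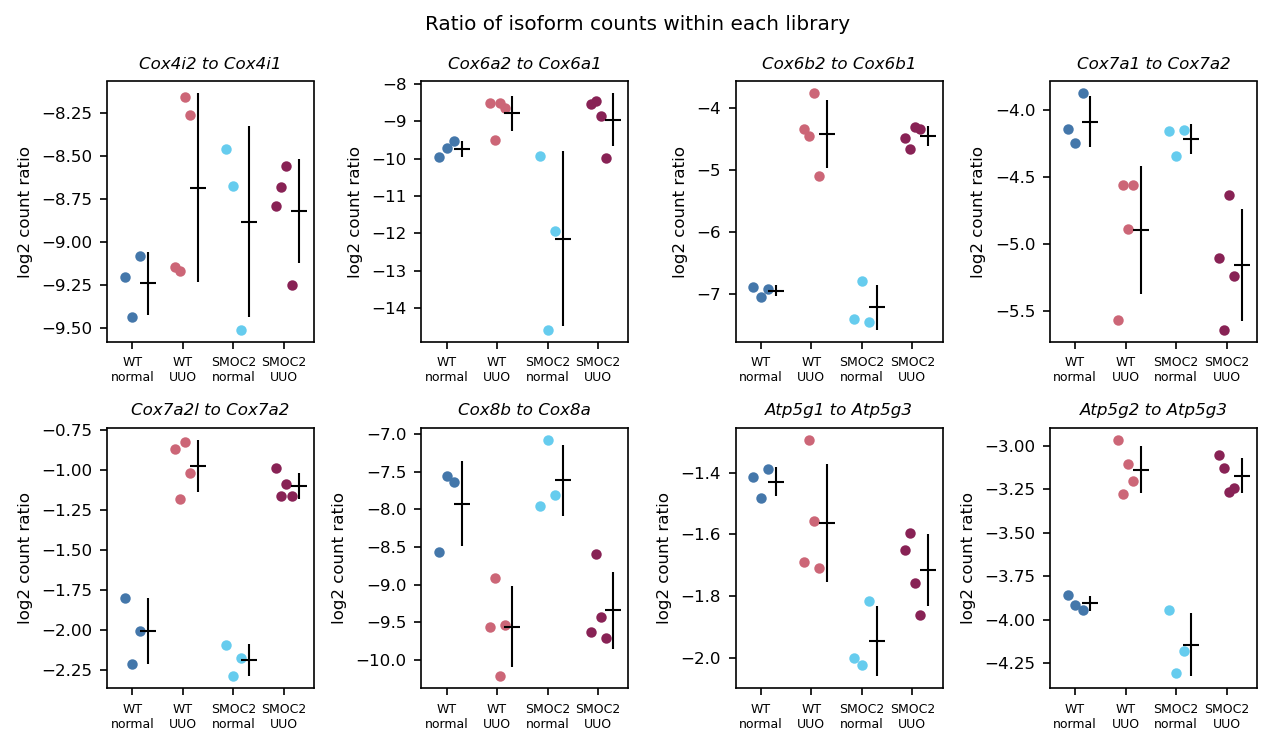
Log2 ratio of isoform counts within each library (vertical axis, a separate scale for each pair) for 8 pairs, by group; bars give the mean and SD. The ratios for Cox6b2, Cox7a2l and Atp5g2 are higher in all UUO libraries of both labels, those for Cox7a1 and Cox8b are lower, and Cox4i2 and Atp5g1 overlap.

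All 17 complex V genes fell in both labels, 14 of them 2-fold or more. The F1 head held the largest falls of the complex. Atp5b, the catalytic beta subunit, stood at 3559, 3931 and 3673 CPM in wild-type normal kidney and at 1017, 1308, 965 and 1261 CPM after UUO. Under the SMOC2 label the values were 3887, 3612 and 4164 CPM without UUO and 1175, 1213, 1138 and 1198 CPM after it. No libraries overlapped, and Atp5b was 3.27-fold lower in wild-type (log2 -1.71, SE 0.12, edgeR adjusted p = 6.42e-08) and 3.29-fold lower in SMOC2-labelled kidney (log2 -1.72, SE 0.12, adjusted p = 4.99e-08).

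Atp5a1, the alpha subunit that alternates with beta around the head, changed by -1.57 and -1.65 (log2, SE 0.13 each). Per kilobase of merged exon (3135 and 4237 bases), the alpha and beta genes were at 904 ± 46.9 and 878 ± 45.0 CPM per kb in wild-type normal kidney (SD, n = 3). These SDs are spreads between libraries, and the difference between the genes within a library was not tested. The central stalk genes Atp5c1 (gamma), Atp5d (delta) and Atp5e (epsilon) changed by -1.33, -1.46 and -1.16 in wild-type and by -1.37, -1.49 and -1.53 in SMOC2-labelled kidney. Atp5d overlaps Cbarp on the opposite strand, and no source used here says whether counting used strand.

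In the c ring, the 3 genes encode the same mature c subunit behind different import sequences, and they did not move alike. Atp5g3, the main form, stood at 556, 680 and 586 CPM in wild-type normal kidney and at 214, 260, 228 and 265 CPM after UUO. Atp5g2 was at 38.4, 45.0 and 38.1 CPM and at 27.4, 26.8, 26.5 and 28.8 CPM. In SMOC2-labelled kidney Atp5g3 was at 670, 765 and 797 CPM and at 219, 232, 263 and 248 CPM, and Atp5g2 at 43.5, 38.7 and 44.0 CPM and at 26.4, 26.5, 27.4 and 26.2 CPM. Both genes were lower in every UUO library, Atp5g3 by a wide margin and Atp5g2 by a narrow one.

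The log2 change was -1.33 (SE 0.11) and -1.63 (SE 0.11) for Atp5g3 and -0.56 (SE 0.08) and -0.66 (SE 0.08) for Atp5g2, wild-type first. The call of Atp5g2 was lost in both labels with library size alone. Atp5g1 changed by -1.45 and -1.41. The ratio of Atp5g2 to Atp5g3 rose by 0.87 (exact permutation adjusted p = 0.001633), while that of Atp5g1 to Atp5g3 did not pass (0.05, adjusted p = 0.5878). That 0.05 is the mean of opposite changes, -0.13 in wild-type and 0.23 in SMOC2-labelled kidney. Shares by length divide counts by merged exon length, which is 4912 bases for Atp5g1, 1675 for Atp5g2 and 2181 for Atp5g3. They depend on these lengths: undivided, Atp5g1 stood at 372 counts per 1000 of Atp5g3 in wild-type normal kidney. On that scale, Atp5g2 went from 6.94% ± 0.206 to 11.4% ± 1.08 of the length-divided c subunit counts in wild-type kidney and from 6.22% ± 0.757 to 11.3% ± 0.627 in SMOC2-labelled kidney (SD, n = 3 and 4). Atp5g3 held 79.9% ± 0.379 and 77.0% ± 0.961 in wild-type kidney and remained the main form. Of the sequences printed above, that of Atp5g3 holds the ERR motif at -52, and the window of Atp5g2 holds the NRF1 motif at -42, in the exonic stretch that was not printed.

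The peripheral stalk, which keeps the head from turning with the rotor, fell in all 4 of its genes: Atp5f1 (b) by 1.55 and 1.55, Atp5h (d) by 1.18 and 1.25, Atp5o (OSCP) by 1.16 and 1.27 and Atp5j (F6) by 1.08 and 1.18 on the log2 scale. Atp5f1 overlaps Wdr77, and Atp5j overlaps Gabpa, on the opposite strand. Among the Fo accessory genes, Atp5k (e) changed by -1.33 and -1.57, Atp5j2 (f) by -1.21 and -1.29 and Atp5mpl by -1.13 and -1.19.

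Atp5l (subunit g) was listed at only 29 to 62 counts a library. It was at 2.56, 3.13 and 1.95 CPM in wild-type normal kidney and 1.33, 2.09, 1.24 and 1.45 CPM after UUO, with overlap. Its change was -0.73 (SE 0.23, edgeR adjusted p = 0.0123) and -0.79 (SE 0.23, adjusted p = 0.00852); the wild-type call was lost without normal replicate 2 (-0.56), and both calls were lost with library size alone. No source used here says how reads shared with near-identical pseudogene copies were counted, which bears on Atp5l and on other members with such copies. Atp5s, which encodes coupling factor B and is not a core subunit, fell by 0.66 and 0.51; these calls too were lost with library size alone.

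Between labels no member passed. For SMOC2-labelled against wild-type normal kidney 0 of 43 members were called by edgeR (0.0279% of all genes were), with 3 at an unadjusted p under 0.05: Uqcrc1, Atp5d and Atp5g3, all higher under the SMOC2 label. At that unadjusted threshold stood 12.8% of all genes. All SMOC2-labelled normal libraries lay above the wild-type ones for Uqcrc1 and Atp5d (8.84% of all genes) and below them for Uqcrc2 (8.01%). After UUO 0 of 43 were called (0.831% of all genes), with 3 at an unadjusted p under 0.05, Atp5d higher and Atp5e and Cox7b lower under the SMOC2 label, beside 15.2% of all genes. All SMOC2-labelled UUO libraries lay below the wild-type ones for Atp5e (4.43% of all genes) and above them for 0 members (5.42%). DESeq2 and limma-voom also called 0 members in both comparisons. Of the 17926 genes tested, DESeq2 called 172 in normal kidney and 757 after UUO, and limma-voom called 9 and 232.

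Uqcrc1 showed the smallest p of these in normal kidney. It was at 490, 573 and 511 CPM in wild-type and at 620, 642 and 706 CPM in SMOC2-labelled kidney without UUO, with no overlap (log2 0.32, SE 0.11, 95% interval 0.08 to 0.57; adjusted p = 0.304 by edgeR). In obstructed kidney Uqcrc1 stood at 150, 197, 148 and 181 CPM and at 186, 196, 197 and 192 CPM, which overlapped (log2 0.19, adjusted p = 0.378). Atp5e, the epsilon subunit, was at 103, 105, 97.6 and 119 CPM in wild-type and at 81.7, 81.6, 93.3 and 70.3 CPM in SMOC2-labelled obstructed kidney, with no overlap (log2 -0.38, SE 0.13, adjusted p = 0.19). In normal kidney Atp5e overlapped between labels, at 232, 275 and 205 against 178, 265 and 265 CPM.

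The interaction of label and UUO called 0 of 43 members by edgeR, with 0 at an unadjusted p under 0.05, beside 0% and 6.44% of all genes. DESeq2 and limma-voom also called 0 members, beside 25 and 0 of the 17926 genes. The smallest edgeR adjusted p was 0.797 (Atp5g3, log2 -0.30, SE 0.16), where the fall was 0.30 larger under the SMOC2 label. The falls in the labels were thus not shown to differ. For Atp5b the 95% interval of the interaction ran between -0.37 and 0.36 on the log2 scale.

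Other genes of oxidative phosphorylation and its control were read from lists. Of 6 mitochondrially encoded subunits of complexes III to V, only mt-Cytb and mt-Co1 were high enough to test. mt-Cytb, the core of complex III, fell by 1.73 and 1.74, and mt-Co1, the catalytic core of complex IV, by 1.54 and 1.72 on the log2 scale (wild-type and SMOC2-labelled). mt-Co2, mt-Co3 and mt-Atp6 were listed at 0 in nearly every library and mt-Atp8 at 0 in all, so their levels cannot be read from these counts.

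Complex II fell too: all 7 genes of its list in wild-type and 6 in SMOC2-labelled kidney, with Sdha at -1.64 and -1.62, Sdhb at -1.71 and -1.90, Sdhc at -1.46 and -1.52 and Sdhd at -1.19 and -1.32; Sdhaf2 did not pass in SMOC2-labelled kidney (-0.05). The median changes of the assembly factors were closer to 0 than those of the subunits. Of 6 complex III factors 4 fell in each label (Uqcc1 by 1.06 and 1.02, while Lyrm7 did not pass), and of 19 complex IV factors 17 and 18 fell (Cox15 by 1.20 and 1.15, Cox10 by 0.82 and 0.79), while the copper chaperone gene Cox17 did not pass in either label (-0.09 and -0.26). All 6 complex V factors fell, including Tmem70 by 1.21 and 1.13 and Fmc1 by 1.32 and 1.68. The median log2 change was -0.36 and -0.38 for the complex III factors, -0.61 and -0.63 for the complex IV factors and -0.90 and -0.99 for the complex V factors.

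Of 9 genes that track mitochondrial content, 7 fell in wild-type and 9 in SMOC2-labelled kidney, with a median of -0.75 and -0.77; the outer membrane channel gene Vdac1 fell by 1.30 and 1.28 and citrate synthase Cs by 0.80 and 0.77, while Vdac3 and Tomm22 did not pass in wild-type kidney. Of 16 regulators, 11 fell and 2 rose in wild-type and 10 fell and 3 rose in SMOC2-labelled kidney. The PGC-1 coactivator genes Ppargc1a (-1.34 and -1.08) and Ppargc1b (-1.43 and -1.37), the nuclear receptor genes Esrra (-1.35 and -1.56), Esrrb (-2.11 and -2.44) and Ppara (-2.24 and -2.28) and the mitochondrial transcription factor Tfam (-0.70 and -0.78) fell, and Pprc1 rose (0.77 and 0.78). Nrf1 rose by 0.22 and 0.23 (edgeR adjusted p = 0.0274 and 0.0246), calls that were lost without single libraries. Gabpa fell by 0.34 and 0.27 with TMM scaling, and its direction turned with library size alone.

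Among related genes, Ndufa4, which encodes a subunit now assigned to complex IV, fell by 1.35 and 1.36. Its hypoxia-linked relative Ndufa4l2 did not pass with TMM scaling of all libraries (0.63 and 0.50) but did with library size alone (1.09 and 0.997). In wild-type kidney 4 alternatives called Ndufa4l2, library size alone among them, against 1 in SMOC2-labelled kidney. The supercomplex-linked gene Higd1a fell by 0.56 and 0.84, and with library size alone its wild-type call was lost (-0.09). Ucp2, an inner membrane carrier of the uncoupling protein family, rose by 1.36 and 1.46 (log2, wild-type and SMOC2-labelled).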

How the data were processed

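RNA of frozen kidney tissue, 14 libraries, was sequenced with a stranded mRNA kit, per the labels' protocols. The deposited files hold raw counts per Ensembl gene for each library; per the submitters' processing notes, the tools were STAR 2.4.1d and featureCounts 1.4.4 with the mm10 build. The strand setting of the counting is not given there. Symbols, coordinates and merged exon lengths came from GENCODE M21 (GRCm38), which matched 47310 of 47729 gene IDs; the unmatched 419 held 0.0288% of counts.

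Groups came from the genotype and treatment labels. Counts were tested with edgeR 4.0.16 (R 4.3.3): TMM scaling, filterByExpr, quasi-likelihood fits of 4 group means over all 14 libraries, Benjamini-Hochberg over 17926 genes, called at adjusted p under 0.05. Comparisons were UUO against normal within each label, SMOC2 against wild-type within each treatment, and their interaction. CPM are counts per 1000000 of TMM-scaled library size. Isoform ratios used exact permutation tests. The fits and ratio tests were tested on simulated data. No pair of replicate libraries agreed within sampling noise. Intervals of log2 changes include the spread between libraries; the upper limit for a count of 0 covers counting error only. Normal and UUO libraries of the same number within a label correlated, in their deviations from the group means, between -0.0916 and 0.135, so numbers were treated as names.

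Alternatives were median-ratio, upper-quartile and no scaling, other filters, DESeq2 1.42.0, limma-voom (limma 3.58.1), a replicate block, fits restricted to the compared groups, and leaving out every library once. The members, gene lists and tests were chosen with earlier results of these data known. All members may be named; of the lists, all mitochondrially encoded, regulator and related isoform genes, and of the others the 4 with the smallest p in wild-type kidney plus exceptions where these were 5 or fewer. Magt1 and Fam71e2 were added after values were seen.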

Additional observations from a re-analysis of the deposited data

Results flagged for a closer look

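Among 88 groups of 4 UUO libraries, 7 had a library set apart from the rest of its group by Dixon's criterion. Chance gives about 1 in 20 groups where groups are independent. The members share their libraries, so the 7 cannot be read as an excess over that rate. Uqcrc2 stood at 165 CPM in SMOC2-labelled UUO replicate 4, against 140 to 144 CPM in the other libraries. SMOC2-labelled UUO replicate 3 was highest for Cox4i1 (420 CPM, against 358 to 365 CPM), Cox8a (330 CPM, against 255 to 267 CPM) and Atp5h (188 CPM, against 157 to 162 CPM). Atp5j2 was lowest in wild-type UUO replicate 1 at 105 CPM, against 122 to 125 CPM. Cox7b2 was at 0.0337 CPM in wild-type UUO replicate 2 and at 0.0311 CPM in SMOC2-labelled UUO replicate 1, a single count each, and at 0 in the rest of those groups. A lone count in a group always meets the criterion, so for Cox7b2 it sets no library apart.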

How the results depend on the processing

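The number of members changed with UUO ran from 37 to 41 in wild-type and from 39 to 43 in SMOC2-labelled kidney over all alternatives (40 to 41 and 42 to 43 with single libraries left out), and it was 0 for both label comparisons in each of them and for the interaction in each that fitted all 4 groups. Over all genes, those label comparisons called 4 to 172 genes in normal kidney and 29 to 757 after UUO, and the interaction called 0 to 25. With library size alone, chosen after seeing the data, the log2 change turned sign for Cox7a2l (0.0587 in wild-type and 0.0650 in SMOC2-labelled kidney), Cox6a2 in wild-type (0.0961), Gabpa (0.123 and 0.228), Gabpb1 (0.341 and 0.233), Yy1 (0.303 and 0.459) and Tfb1m in SMOC2-labelled kidney (0.187). By construction it moves all genes up together, as the median of all genes shows. Yy1 in SMOC2-labelled kidney, which was not called, also turned under upper-quartile scaling (0.0740) and, with single libraries left out, ran from -0.0935 to 0.000637 (without UUO replicate 4); the cause was not tested. In SMOC2-labelled libraries alone the 6 isoform ratios that had passed kept their direction but lost significance (adjusted p = 0.07619): Cox6a2 3.1874, Cox6b2 2.7633, Cox7a1 -0.9389, Cox7a2l 1.0854, Cox8b -1.7291 and Atp5g2 0.9717. In wild-type libraries alone so did Cox6a2 (0.9418), and Atp5g1 to Atp5g3 turned to -0.1342. These tests had fewer libraries and fewer arrangements, so their smallest possible p was larger than in the test of both labels. A loss of significance here therefore cannot show that a ratio did not change. With the replicate number as a block, the counts of members changed were 41 and 42, as without it. Low counts limited what could be read for Cox4i2, Cox6a2, Cox7b2, Cox8b, Cox8c and Atp5l. For Atp5l, whether depth or the counting of shared reads kept the count low was not tested.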
